A study of Mus musculus with 12 samples.

Results

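The module described here holds 34 mouse genes of xenobiotic metabolism, the handling of foreign and waste chemicals by cytochrome P450s, esterases, flavin monooxygenases, conjugating enzymes, export pumps and the receptors that sense their substrates. The members came from a fixed list of names, drawn up with earlier results of these data known. Each gene was read from its brightest detected probe on a bead array. The arrays carried a probe named for 31 of the 34 members, out of 19057 named genes in all. No probe was named for Cyp2c66, Por or Ces2c, and no value is given for them.

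The arrays came from C57BL/6 mice (C57BL/6J in the study's text) aged 14 days that breathed either hyperoxia (FiO2, the fraction of inspired oxygen, 0.85) or normoxia (FiO2 0.21) from postnatal day 3 to day 14. RNA was taken from the lung and from a short piece of the terminal ileum, giving 4 groups of 3 arrays: hyperoxia ileum, normoxia ileum, hyperoxia lung and normoxia lung. None of the groups carried a named mutation or transgene. The sources used here do not say that the 3 samples of a group were separate animals or give their litters, so each p-value measures only the spread between these samples. In the study's text, newborn pups of paired litters were pooled and shared out again before exposure. A whole pooled litter then went to hyperoxia or to normoxia, and the dams changed places daily. Rearing litter and exposure therefore go together, and the litter behind each array was not given.

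Between 42.6% and 46% of 45281 probes were detected on each array, and replicate arrays correlated at 0.972 to 0.992 across probes. Defining lung genes averaged 5.62 ± 0.13 log2 signal on the 6 ileum arrays and 13.18 ± 0.11 on the 6 lung arrays (SD), and defining ileum genes 10.60 ± 0.23 on ileum arrays and 5.11 ± 0.08 on lung arrays, so that 12 of 12 arrays followed their tissue label. On 6 arrays a second label, the source name, gave the other tissue. Fabp2 and Slc10a2, both on the list of 10 ileum genes, were not detected on any ileum array. The ratio of strong signal to background was 11.4 to 13.2 on the hyperoxia ileum arrays and 15.5 to 15.9 on the normoxia ileum arrays, without overlap, against 14.6 to 19 on hyperoxia lung arrays and 15.5 to 16.8 on normoxia lung arrays. Whether this lower contrast took part in the ileum differences below was not tested. These are whole tissues, in which fewer cells of a type and less RNA per cell cannot be told apart.

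Xenobiotic metabolism is usually described in steps. Cytochrome P450s, fed with electrons by the reductase Por, and flavin monooxygenases add or expose a reactive group. Carboxylesterases split esters, and alcohol dehydrogenase and aldehyde oxidase oxidise further. UDP-glucuronosyltransferases and sulfotransferases attach a water-soluble group, and transporters of the ABC family pump the conjugate out of the cell. The aryl hydrocarbon receptor Ahr, the pregnane X receptor Nr1i2 and the constitutive androstane receptor Nr1i3 are transcription factors that sense foreign chemicals and switch such genes on. The intestinal epithelium meets ingested chemicals first, and the lung carries its own set of P450s, well known from the club cells of the airway lining.

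Levels are given as log2 signal, the logarithm of background-corrected and quantile-normalised brightness, and they compare one probe between arrays, never one gene with another. A probe counted as detected on an array where its signal exceeded the negative control probes at p under 0.05. Of the 34 members, 21 were detected on at least 3 of the 6 arrays of a tissue. In the ileum 18 members could be tested, in the lung 13, and 10 members in both. A difference was called at a Benjamini-Hochberg adjusted p under 0.05, from limma's moderated test over all genes tested in that comparison.

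Where the module is expressed was read first from the normoxia arrays. Of 21 members tested, 20 differed between normoxia ileum and normoxia lung, 12 of them higher in the ileum and 8 higher in the lung, on arrays where 56.9% of 11622 genes were called (26.6% higher and 30.3% lower in the ileum). For 12 of the 20, the probe used was detected on no normoxia array of one tissue. These 12 entered the test only through the tissue where they are high, so the count of calls is a description of the members tested, and for them only a lower bound of the ratio is given, from the bright group's mean over the lowest signal that counted as detected.

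The detected members higher in the ileum included conjugating and export genes, the receptors Nr1i2 and Nr1i3, part of the P450s and the flavin monooxygenase Fmo5. Other members of these classes, among them Ugt2b5, Abcb1a and Ahr, were detected in neither tissue. Abcc2, the pump that exports conjugates across the apical membrane, read 9.76, 10.24 and 10.69 in normoxia ileum and was undetected on the 3 normoxia lung arrays, at least 32.2-fold higher in the ileum. Sult1d1, a sulfotransferase of phenols and catecholamines, averaged 11.00 ± 0.13 in normoxia ileum and 5.31 ± 1.11 in normoxia lung, where 1 of 3 arrays detected it. The bounds were at least 16.2-fold for the glucuronosyltransferase Ugt2b34 and at least 4.72-fold for Ugt1a1, the enzyme that conjugates bilirubin. Cyp3a13, a P450 of the CYP3A family, had the largest fitted tissue difference of the 21 members, at 12.36 ± 0.22 in normoxia ileum and 5.95 ± 0.25 in normoxia lung (SD, n = 3 each), an 85.0-fold difference. The CYP2C enzymes Cyp2c65 and Cyp2c55 were at least 14.9-fold and at least 4.15-fold higher in the ileum, and Cyp2d26 at least 7.02-fold. For the receptors the bounds were at least 18.8-fold for Nr1i2 and at least 5.16-fold for Nr1i3. These bounds are those of the probe used. A dimmer Nr1i3 probe, detected on 2 of 3 normoxia lung arrays, averaged 5.18 in normoxia ileum and 5.25 in normoxia lung, and a dimmer Cyp2c65 probe, also detected on 2 of 3 normoxia lung arrays, averaged 6.93 in normoxia ileum and 5.50 in normoxia lung.

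The members higher in the lung were led by Ces1d, a carboxylesterase, at 7.14 ± 0.04 in normoxia ileum and 13.47 ± 0.17 in normoxia lung, a log2 difference of -6.34 ± 0.25 (SE). Cyp4b1, a P450 known from lung tissue that hydroxylates fatty acids and activates some protoxins, was undetected in normoxia ileum and at least 30.0-fold higher in normoxia lung. Cyp2b10, a P450 that Nr1i3 is known to induce in liver, was at least 11.3-fold higher in the lung, and Cyp2e1, which oxidises ethanol and small solvents, at least 10.9-fold. Adh1, an alcohol dehydrogenase that also oxidises retinol, averaged 8.53 ± 0.24 in normoxia ileum and 12.61 ± 0.20 in normoxia lung. Fmo2 and Cyp2d22 were higher in the lung by smaller amounts, with log2 differences of -1.68 and -1.23, while Fmo5 was 7.38-fold higher in the ileum. Cyp2s1, a P450 of surface epithelia, had a log2 difference of -0.74 (limma adjusted p = 0.0244), and this call was lost without normoxia ileum replicate 1 or 2 or without normoxia lung replicate 1 or 3 (adjusted p = 0.0547 to 0.125). Cyp1b1, which metabolises oestrogens and polycyclic aromatic hydrocarbons, was the 1 member not called, at 6.78 ± 0.18 in normoxia ileum and 6.10 ± 0.11 in normoxia lung (adjusted p = 0.067).

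**Figure D1:**
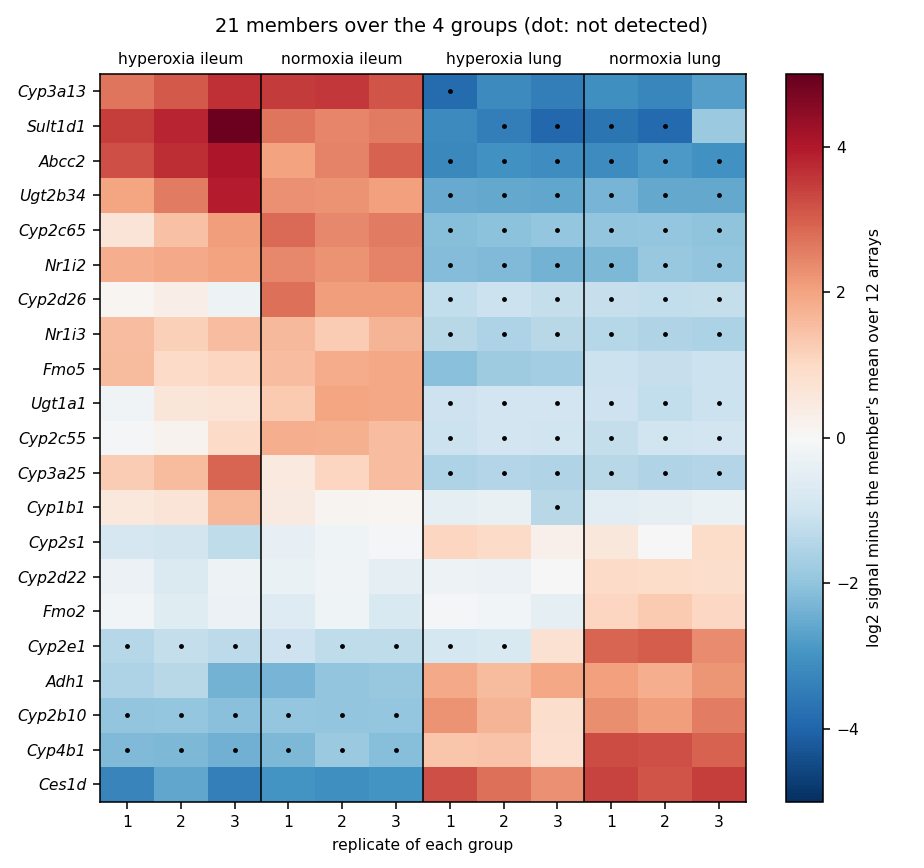
Log2 signal of the 21 detected members (rows) on the 12 arrays (columns, 3 replicates of hyperoxia ileum, normoxia ileum, hyperoxia lung and normoxia lung), each as its difference from that member's own mean over the 12 arrays; black dots mark arrays on which the probe was not detected. Members from Cyp3a13 down to Cyp1b1 are higher on the ileum arrays, and members from Cyp2s1 down to Ces1d are higher on the normoxia lung arrays.

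In the ileum, hyperoxia was compared with normoxia over 18 members. The P450s Cyp2d26, Cyp2c55 and Cyp2c65 and the glucuronosyltransferase Ugt1a1 were lower in hyperoxia ileum, and the sulfotransferase Sult1d1 and the export pump Abcc2 were higher. In all 9 of 18 members were called, 7 lower and 2 higher, on arrays where 26.8% of 11178 genes were called (14.1% lower and 12.7% higher). The 3 hyperoxia arrays did not overlap the 3 normoxia arrays for 9 of the 18, against 40.1% of all genes. The median change over the 18 was -0.12 log2 units, beside -0.03 over all genes, and 6 of the 9 called members changed at least 2-fold.

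Cyp2d26, a P450 of the CYP2D subfamily, fell the most. It read 5.85, 6.05 and 5.48 in hyperoxia ileum, against 8.47, 7.81 and 7.82 in normoxia ileum. Each hyperoxia array lay below each normoxia array by more than a log2 unit, and the level was 4.73-fold lower (log2 difference -2.24 ± 0.20, limma adjusted p = 8.81e-06). On the other 2 Cyp2d26 probes, which are dimmer, the gene was detected on the 3 normoxia arrays and on none of the 3 hyperoxia arrays.

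Cyp2c55, which in mouse oxidises arachidonic acid and is known from the lower gut, read 5.47, 5.72 and 6.51 in hyperoxia ileum and 7.38, 7.33 and 7.11 in normoxia ileum. The groups did not overlap, with hyperoxia replicate 3 nearest to the normoxia arrays, and the log2 difference was -1.38 ± 0.22 (limma adjusted p = 0.00116). Its relative Cyp2c65, another arachidonic acid oxygenase of the gut, read 7.17, 7.96 and 8.60 in hyperoxia ileum and 9.32, 8.91 and 9.12 in normoxia ileum, 2.31-fold lower (adjusted p = 0.0066). The 3 further probes of Cyp2c65 gave -0.65, -0.96 and -1.28. The genes of the Cyp2c cluster are close copies of each other, and the probe sequences were not used here to tell them apart.

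Ugt1a1 followed the same direction. It read 5.54, 6.32 and 6.42 in hyperoxia ileum, against 7.03, 7.69 and 7.67 in normoxia ileum, without overlap and 2.58-fold lower (log2 difference -1.37 ± 0.23, limma adjusted p = 0.00163). The Ugt1a enzymes share their later exons, so a probe named for one may read several. Of 7 other glucuronosyltransferases 3 also fell, Ugt1a7c (-1.18), Ugt1a6a (-0.95) and Ugt1a10 (-0.66). Another 2 rose, among them Ugt2b36 (0.74), and the list median was 0.08. The member Ugt2b34 was not called (0.64, adjusted p = 0.181). Ugt2b34 read 9.02, 9.64 and 10.97 in hyperoxia ileum and 9.33, 9.29 and 9.10 in normoxia ileum, where the groups overlapped.

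The promoters of the ileum members whose calls held under every alternative setting are shown, as those of the firmest changes. They are RefSeq windows of 300 bases in build GRCm38.p6, from 250 bases before the start of the gene to 50 after it, printed along the gene's own strand. The windows are Cyp2d26 at chr15:82794196-82794495, Cyp2c55 at chr19:39006769-39007068, Cyp2c65 at chr19:39060756-39061055, Ugt1a1 at chr1:88211709-88212008 and, for the member that rose, Abcc2 at chr19:43782058-43782357. Cyp2d26 lies on the minus strand and the other 4 on the plus strand. Capitals mark matches, on either strand, to 6 sets of letters that transcription factors or the transcription machinery are known to read. TATAAA is the TATA box, and GTTAAT is a half-site of the liver and gut factor HNF1. AGGTCA is a half-site of many nuclear receptors, and the variant AGTTCA is the half-site known for Nr1i2. GCGTG is the core read by Ahr, and TGACNNNGC the core of the antioxidant response element.
Cyp2d26: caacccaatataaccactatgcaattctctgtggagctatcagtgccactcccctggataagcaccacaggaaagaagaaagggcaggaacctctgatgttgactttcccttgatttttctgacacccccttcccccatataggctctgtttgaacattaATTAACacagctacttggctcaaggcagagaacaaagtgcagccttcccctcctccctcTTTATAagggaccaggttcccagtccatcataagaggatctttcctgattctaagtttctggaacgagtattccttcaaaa
Cyp2c55: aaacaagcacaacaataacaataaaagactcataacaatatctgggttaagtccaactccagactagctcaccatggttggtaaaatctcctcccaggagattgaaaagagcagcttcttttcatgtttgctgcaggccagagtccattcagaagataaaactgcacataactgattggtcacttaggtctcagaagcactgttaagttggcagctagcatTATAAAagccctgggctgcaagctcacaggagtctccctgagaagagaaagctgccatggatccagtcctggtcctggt
Cyp2c65: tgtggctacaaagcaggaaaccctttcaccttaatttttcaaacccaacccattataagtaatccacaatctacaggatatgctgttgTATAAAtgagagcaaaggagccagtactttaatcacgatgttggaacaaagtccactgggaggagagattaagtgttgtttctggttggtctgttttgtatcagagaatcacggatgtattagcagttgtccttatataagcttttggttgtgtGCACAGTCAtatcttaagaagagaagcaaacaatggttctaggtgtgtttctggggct
Ugt1a1: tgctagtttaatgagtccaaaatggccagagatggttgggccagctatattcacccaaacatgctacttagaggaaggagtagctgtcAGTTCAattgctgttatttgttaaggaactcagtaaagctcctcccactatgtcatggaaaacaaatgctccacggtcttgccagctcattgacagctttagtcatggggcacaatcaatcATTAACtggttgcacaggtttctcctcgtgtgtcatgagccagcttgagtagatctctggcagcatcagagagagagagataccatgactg
Abcc2: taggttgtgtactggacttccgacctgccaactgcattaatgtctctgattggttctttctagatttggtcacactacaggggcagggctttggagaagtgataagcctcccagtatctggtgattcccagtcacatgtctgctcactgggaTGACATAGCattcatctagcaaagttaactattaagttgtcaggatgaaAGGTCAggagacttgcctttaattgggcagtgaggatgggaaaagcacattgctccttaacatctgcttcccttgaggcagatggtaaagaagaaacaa

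The marked letters differ between these windows, and no 2 of the marked matches overlap. Cyp2d26 and Ugt1a1 each hold an HNF1 half-site, 90 and 41 bases before the start, letters found in 7.1% of 32851 promoter windows of this length. Cyp2d26, Cyp2c55 and Cyp2c65 hold TATAAA, at 31, 29 and 162 bases before the start (13.6% of all windows), on the reverse strand in Cyp2d26. Ugt1a1 holds AGTTCA 162 bases before its start (14% of all windows), and Abcc2, the member that rose, holds AGGTCA at 49 bases (16.3%) and TGACNNNGC at 98 bases (12.4%), which Cyp2c65 also holds 8 bases before its start. None of the 5 holds GCGTG, which is in 32.4% of all windows. A match describes the sequence only.

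Abcc2 rose in hyperoxia ileum, at 10.98, 11.45 and 11.79, against 9.76, 10.24 and 10.69 in normoxia ileum. The lowest hyperoxia array stood above the highest normoxia array, and the increase was 2.26-fold (log2 difference 1.18 ± 0.24, limma adjusted p = 0.00429). Sult1d1 read 11.91, 12.25 and 13.35 in hyperoxia ileum and 11.12, 10.86 and 11.03 in normoxia ileum, 2.83-fold higher (adjusted p = 0.0282). Hyperoxia replicate 3 was the highest array for both genes. The call on Sult1d1 was lost without that array (1.08, adjusted p = 0.116) or without normoxia ileum replicate 1, 2 or 3 (adjusted p = 0.051 to 0.0794). A dim second probe of Sult1d1, near the detection limit on every array, gave -0.09 (adjusted p = 0.725), and the mean of both probes 0.71 (adjusted p = 0.0743). The call was also lost with the authors' normalised values (adjusted p = 0.0568), without the detection filter (0.0768) and in an ordinary linear model (0.0972).

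The remaining called members fell by less than 2-fold. Cyp2s1 read 9.09, 9.01 and 8.64 in hyperoxia ileum against 9.49, 9.69 and 9.81 in normoxia ileum (log2 difference -0.75 ± 0.26, limma adjusted p = 0.0446). Nr1i2, the pregnane X receptor, read 8.90, 8.98 and 9.08 in hyperoxia ileum against 9.49, 9.31 and 9.56 in normoxia ileum (-0.47 ± 0.15, adjusted p = 0.0387), a small shift without overlap. Fmo5, a flavin monooxygenase, read 9.79, 9.15 and 9.27 in hyperoxia ileum against 9.75, 10.04 and 10.11 in normoxia ileum (-0.57 ± 0.19, adjusted p = 0.0392), and here hyperoxia replicate 1 lay above normoxia replicate 1. A second Fmo5 probe, detected on all 6 ileum arrays, gave -0.82 ± 0.20 (adjusted p = 0.00996).

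These 3 calls, on Cyp2s1, Nr1i2 and Fmo5, lay close to the threshold. Leaving out any of 7 of the 12 arrays lost the call on Cyp2s1 (adjusted p = 0.0525 to 0.142), on Nr1i2 (0.0519 to 0.13) and on Fmo5 (0.0533 to 0.135). For Cyp2s1 these were all 3 normoxia ileum arrays, hyperoxia ileum replicates 2 and 3, normoxia lung replicate 1 and hyperoxia lung replicate 2. For Nr1i2 they were all 3 normoxia ileum arrays, hyperoxia ileum replicates 1 and 2, normoxia lung replicate 3 and hyperoxia lung replicate 1. For Fmo5 they were normoxia ileum replicates 2 and 3, hyperoxia ileum replicates 2 and 3 and all 3 normoxia lung arrays. The lung arrays enter through the spread that the groups share. With only the 2 ileum groups in the fit, Nr1i2 and Fmo5 were not called (adjusted p = 0.108 and 0.113). Without normoxia ileum replicate 2 or 3 the number of members called was 5. The count over all genes fell as well, from 2995 to 1403 without replicate 3. Without background correction the differences of Cyp2d26, Cyp2c55 and Ugt1a1 were smaller (-1.24, -0.67 and -0.72) and still called, but Cyp2s1 was not (-0.65, limma adjusted p = 0.0509). The call on Cyp2s1 was also lost with the authors' normalised values, without the detection filter and in an ordinary linear model. Fmo5 lost its call with the authors' values and in the ordinary model, and Nr1i2 under another form of the moderation.

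**Figure D2:**
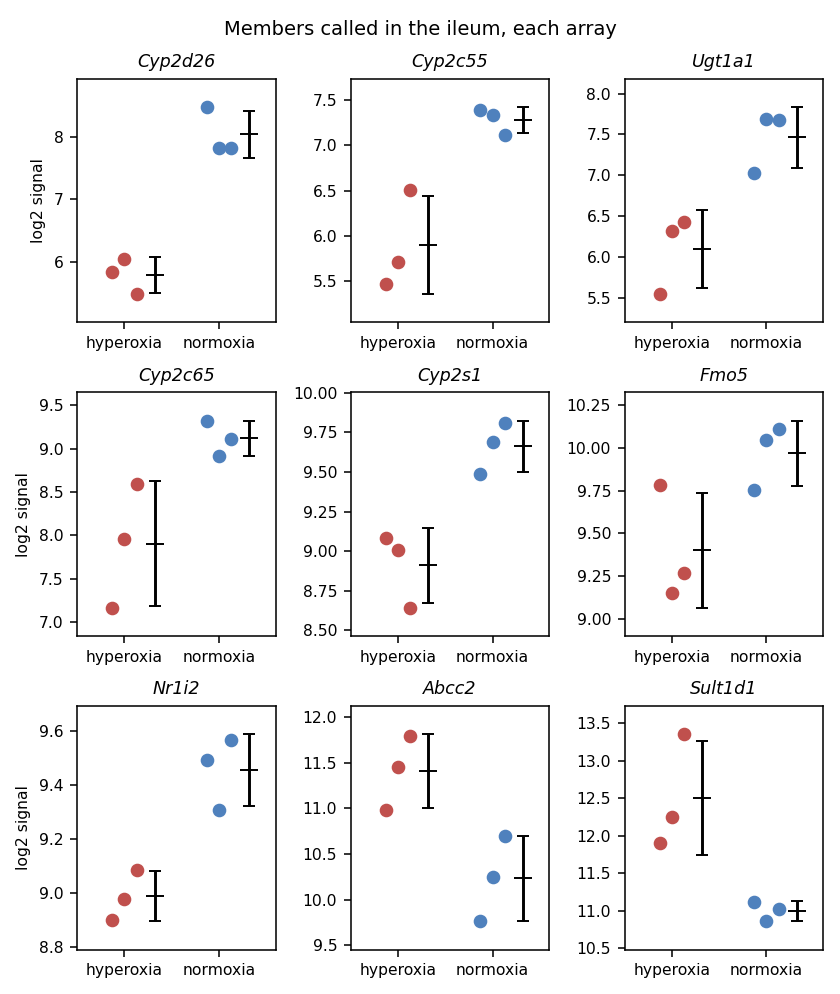
Log2 signal of the 9 members called in the ileum, with 1 point per array for hyperoxia (left, red) and normoxia (right, blue) and the mean ± SD beside each group (n = 3 each); the vertical axes do not start at 0. The hyperoxia points lie below the normoxia points for Cyp2d26, Cyp2c55, Ugt1a1, Cyp2c65, Cyp2s1 and Nr1i2, above them for Abcc2 and Sult1d1, and overlap them for Fmo5.

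The other 9 members tested in the ileum were not called. Cyp3a25, a CYP3A enzyme, read 7.21, 7.54 and 8.86 in hyperoxia ileum and 6.45, 7.01 and 7.49 in normoxia ileum (0.88, limma adjusted p = 0.0696). Cyp1b1 read 7.09, 7.20 and 8.22 in hyperoxia ileum and 6.99, 6.70 and 6.65 in normoxia ileum (0.73, adjusted p = 0.0832), without overlap but with a wide spread among hyperoxia arrays. Hyperoxia replicate 3 was again the highest array for both. Cyp3a13 changed by -0.26 (adjusted p = 0.448). Ces1d (-0.09), Cyp2d22 (-0.13), Nr1i3 (-0.11), Fmo2 (0.19) and Adh1 (0.29) had adjusted p between 0.371 and 0.8.

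Other genes of the pathway, grouped by function, gave the setting of these changes. Of 115 further pathway genes tested in the ileum, 20 rose, 23 fell and 72 were not called. Over all 11178 genes tested in the ileum, 26.8% were called (12.7% higher and 14.1% lower). The ileum lists here and below are to be read beside these shares, and those of glutathione transferases and drug transporters lay near them. Among other P450s of families 1 to 4, 6 of 9 fell, with a list median of -0.81: Cyp4f14 (-1.94 ± 0.19), a fatty acid and leukotriene hydroxylase, Cyp4v3 (-1.76), Cyp2j13 (-1.30), Cyp4f16 (-1.04), Cyp2j9 (-0.81) and Cyp2d10 (-0.80). Cyp2c67 rose (1.29 ± 0.18, limma adjusted p = 4.41e-04), against the direction of Cyp2c55 and Cyp2c65. Of 10 other esterases and epoxide hydrolases 3 rose and none fell, with a list median of 0.12: the arylacetamide deacetylase Aadac (2.66, 6.31-fold), the lactonase Pon3 (1.66) and the epoxide hydrolase Ephx2 (1.38). At an unadjusted p under 0.05, limma gave 4 esterases higher and 1 lower.

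Glutathione transferases, which attach glutathione to electrophiles, were mixed, with 4 of 21 higher and 2 lower. The alpha class genes Gsta3 (1.87), Gsta1 (1.41) and Gsta2 (1.29) rose with the membrane enzyme Mgst1 (0.70), and Gstp1 (-1.54) and Gstm1 (-0.91) fell. Among other oxidoreductases 6 of 20 rose, among them the aldo-keto reductases Akr1c12, Akr1c14 and Akr1c19 and the flavin monooxygenase Fmo1 (0.99), and 2 fell, Aldh3b1 (-0.83) and Xdh (-0.66). Of 6 other sulfotransferases, Sult2b1 (-1.61) and Sult4a1 (-0.79) fell, opposite to Sult1d1. Drug transporters showed 1 of 15 higher, Abcc5 (0.80), and 3 lower, the solute carriers Slc22a4 (-1.66) and Slc22a18 (-1.12) and the basolateral pump Abcc3 (-0.74), opposite to Abcc2.

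Among receptor partners and regulators, 2 of 8 fell: the vitamin D receptor Vdr (-1.18, limma adjusted p = 0.00251) and Rxra (-1.03, adjusted p = 0.00399), the partner of Nr1i2 and Nr1i3 on DNA. Arnt, the partner of Ahr, changed by 0.09 (adjusted p = 0.693). Of 6 known Ahr target genes tested, Gsta1 rose and Ugt1a6a fell. The enzymes of haem synthesis Alas1 (-0.62), Alad (-0.66) and Cpox (at least 1.27-fold lower) fell, 3 of 13 genes of haem handling and P450 electron transfer, and the haem oxygenase Hmox1 (1.00) rose.

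Marker genes of other cell types were read beside these results. Of 8 enterocyte markers tested in the ileum, 3 fell, Anpep (-2.19), Slc5a1 (-0.93) and Vil1 (-0.47), and Apob rose (1.43); the summed signal of the list was 52060 to 66060 in hyperoxia ileum and 50370 to 58180 in normoxia ileum, with Fabp1 and Fabp2 undetected. Of 6 goblet cell markers 3 fell, led by Zg16 (-2.97), and 1 rose, and the sum was 26580 to 26870 in hyperoxia ileum and 38730 to 45340 in normoxia ileum. Of 8 ileum-defining genes tested 4 fell, led by Fabp6 (-2.56). The hepatocyte list summed to 881.2 to 2602 in hyperoxia ileum and 665.6 to 1004 in normoxia ileum, with Alb, Apoh, Tat and Ahsg undetected in both. The part of these shifts in the changes of the members was not tested.

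In the lung, every called member was lower under hyperoxia. Of 13 members tested, 5 were called and all 5 were lower, on arrays where 20.5% of 11214 genes were called (10.6% lower and 9.9% higher). The hyperoxia and normoxia arrays did not overlap for 5 of the 13, against 43.3% of all genes. The median change was -0.57 log2 units, beside 0.02 over all genes. The 5 were 3 P450s and 2 flavin monooxygenases. No conjugating enzyme or transporter among the members could be tested in the lung, and of the receptors only Nr1i3 could. At an unadjusted p under 0.05, limma gave 7 members lower and 0 higher.

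Cyp2e1 changed most. It read 5.08, 5.18 and 6.71 in hyperoxia lung, against 8.86, 8.96 and 8.33 in normoxia lung. Only hyperoxia replicate 3 detected it, and even that array was below each normoxia array. The fitted difference was -3.06 ± 0.34 (8.33-fold lower, limma adjusted p = 2.71e-05), and without that array no hyperoxia lung array detected the gene. The 3 normoxia arrays, where it is high, were enough to pass the detection filter, and 2 of 3 hyperoxia values lay under the detection limit. The size of the fall is therefore uncertain, and without background correction the difference was -1.78.

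Cyp4b1 read 8.41, 8.46 and 7.89 in hyperoxia lung and 10.29, 10.26 and 10.00 in normoxia lung. The 2 groups were separated by more than a log2 unit, and the gene was 3.82-fold lower (-1.93 ± 0.18, limma adjusted p = 7.95e-06). Cyp2d22, a mouse CYP2D enzyme, read 8.06, 8.02 and 8.29 in hyperoxia lung against 9.29, 9.23 and 9.19 in normoxia lung, 2.17-fold lower (-1.12 ± 0.17, adjusted p = 3.04e-04). A second, dim probe of Cyp2d22, detected on 1 of 3 hyperoxia and 2 of 3 normoxia lung arrays, gave -0.24 (adjusted p = 0.522), and the mean of both probes -0.68 (adjusted p = 0.0064).

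Both flavin monooxygenases fell. Fmo2, the form best known from lung, read 6.17, 6.13 and 5.76 in hyperoxia lung and 7.34, 7.57 and 7.29 in normoxia lung (-1.38 ± 0.19, limma adjusted p = 1.9e-04), without overlap. Fmo5 read 6.09, 6.43 and 6.45 in hyperoxia lung and 7.11, 7.03 and 7.12 in normoxia lung (-0.76 ± 0.19, adjusted p = 0.0107), and its call was lost without hyperoxia lung replicate 1 (-0.65, adjusted p = 0.054). Fmo1, which is not a member, fell 10.5-fold (-3.39 ± 0.19, adjusted p = 7.05e-08). Without background correction Fmo2 changed by -0.71 and Fmo5 by -0.39 (adjusted p = 0.0667).

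The promoters of the 2 P450s that fell most in the lung are printed with the same letters in capitals: Cyp2e1 at chr7:140763569-140763868 on the plus strand and Cyp4b1 at chr4:115647672-115647971 on the minus strand, both RefSeq windows in GRCm38.p6.
Cyp2e1: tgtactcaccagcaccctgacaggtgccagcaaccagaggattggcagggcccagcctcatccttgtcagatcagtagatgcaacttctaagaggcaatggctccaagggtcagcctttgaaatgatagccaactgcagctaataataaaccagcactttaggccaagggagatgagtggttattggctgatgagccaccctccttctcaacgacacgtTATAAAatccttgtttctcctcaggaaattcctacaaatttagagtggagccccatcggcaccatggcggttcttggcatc
Cyp4b1: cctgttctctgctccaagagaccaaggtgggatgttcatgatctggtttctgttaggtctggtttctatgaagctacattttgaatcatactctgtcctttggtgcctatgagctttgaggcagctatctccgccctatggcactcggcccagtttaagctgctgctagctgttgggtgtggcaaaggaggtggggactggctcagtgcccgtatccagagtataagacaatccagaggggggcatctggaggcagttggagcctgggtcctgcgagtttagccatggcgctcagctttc

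Cyp2e1 holds TATAAA 31 bases before its start and Cyp4b1 holds none of the 6 sets of letters. Among all members, 31 had a promoter window and 36 windows were searched, since Abcg2, Cyp3a25, Fmo2 and Sult1b1 have more than 1. TATAAA was in 12 of the 36, AGGTCA in 10, GCGTG in 8, AGTTCA in 5, TGACNNNGC in 4 and GTTAAT in 3. Cyp2d22, Ces1d and Ahr are named only.

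**Figure D3:**
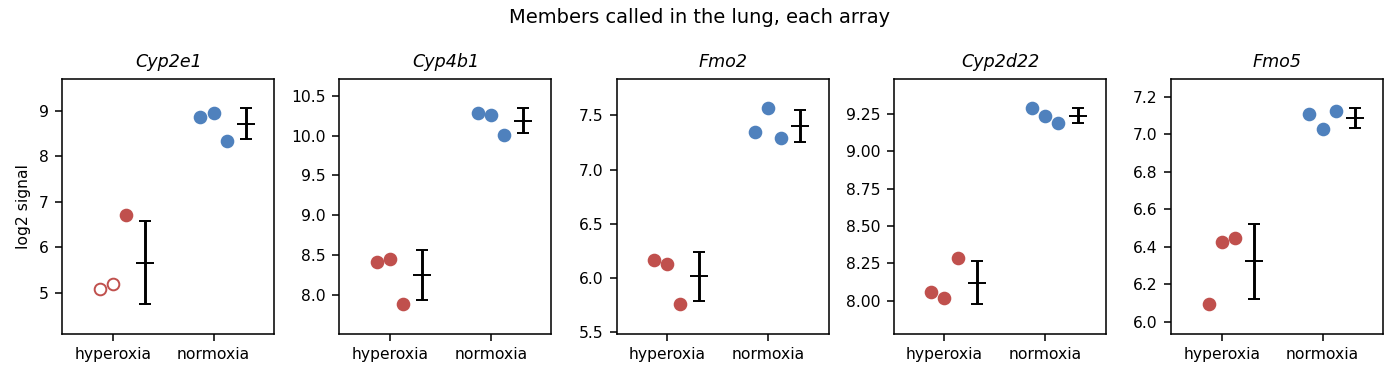
Log2 signal of the 5 members called in the lung, with 1 point per array for hyperoxia (left, red) and normoxia (right, blue) and the mean ± SD beside each group (n = 3 each); open points were not detected and the vertical axes do not start at 0. All hyperoxia points lie below all normoxia points in each panel, and 2 of the 3 hyperoxia points of Cyp2e1 are open.

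The remaining 8 members tested in the lung were not called, 6 of them with a negative difference. Cyp2b10 read 8.70, 8.15 and 7.33 in hyperoxia lung and 8.77, 8.55 and 9.00 in normoxia lung (-0.71 ± 0.26, limma adjusted p = 0.0723), where the groups overlapped and hyperoxia replicate 3 was lowest. Ces1d read 13.36, 12.90 and 12.43 in hyperoxia lung against 13.53, 13.28 and 13.60 in normoxia lung (-0.57, adjusted p = 0.123). Cyp3a13 (-0.47), Cyp1b1 (-0.28), Cyp2c65 (-0.26) and Adh1 (-0.22) had adjusted p between 0.21 and 0.573. Cyp2s1 (0.28) and Nr1i3 (0.34) had positive differences with adjusted p of 0.505 and 0.324. For Cyp2c65 and Nr1i3 the lung value came from another probe than in the ileum, detected on only some lung arrays.

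Of 109 further pathway genes tested in the lung, 8 rose, 15 fell and 86 were not called. Over all 11214 genes tested in the lung, 20.5% were called (9.9% higher and 10.6% lower), a share close to that of these pathway genes. The lung lists below are to be read beside it. Other P450s fell in 3 of 10 cases and rose in none: Cyp2j9 (-1.20), the club cell enzyme Cyp2f2 (13.05 ± 0.73 in hyperoxia lung and 14.05 ± 0.19 in normoxia lung) and Cyp2d40 (at least 1.33-fold lower). Other oxidoreductases fell in 4 of 22 cases, Fmo1, the aldehyde oxidase Aox3 (-1.11), Aldh2 (-0.63) and Xdh (-0.60), and the aldo-keto reductase Akr1b8 rose (2.37, 5.16-fold). The methyltransferase Inmt fell (-2.63 ± 0.46), with an SD of 1.37 among hyperoxia arrays, and Nnmt (1.21) and Tpmt (0.67) rose. The phenol sulfotransferase Sult1a1 fell (-1.55).

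Of 12 other drug transporters 2 rose and 3 fell. Abcb1b, a P-glycoprotein gene related to the undetected member Abcb1a, averaged 7.71 ± 0.49 in hyperoxia lung and was not detected in normoxia lung, at least 5.59-fold higher. It entered the test only through the hyperoxia arrays, where it is high, so its call is a description and no p-value is given. Slco4a1 rose (1.72), while Slco2a1 (-1.18), Slco2b1 (-1.09) and Slc47a1 (-0.82) fell. Hmox1 rose 5.72-fold, to 10.13 ± 0.23 in hyperoxia lung, against 7.62 ± 0.05 in normoxia lung. The epoxide hydrolase Ephx1 (1.08) and Ugt1a7c (0.98) also rose, and the lactonase Pon1 fell (-1.17). Of 22 glutathione transferases 1 was called, Mgst2 (-0.83). Of 7 known Ahr targets tested limma called none (1 higher and 0 lower at an unadjusted p under 0.05), and Nqo1, the quinone reductase, read 0.69 higher (adjusted p = 0.149).

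Cell type markers moved in the lung as well. Of 7 endothelial markers 5 fell, among them Tek (-2.45) and Vwf (-1.74), and their summed signal was 13750 to 17760 in hyperoxia lung and 28660 to 31370 in normoxia lung. Of 3 club cell markers tested 1 fell, Cyp2f2, itself one of the P450s given above, and the list median was -0.07. The sum, which includes Cyp2f2, was 28040 to 32410 in hyperoxia lung and 37070 to 42740 in normoxia lung, with Cckar undetected. Of 6 markers of alveolar type 2 cells limma called none (2 lower at an unadjusted p under 0.05), with sums of 42850 to 54760 in hyperoxia lung and 53370 to 54510 in normoxia lung. Smooth muscle markers rose in 4 of 5 cases, with sums of 29980 to 32030 in hyperoxia lung and 10140 to 14410 in normoxia lung. Their part in the changes of the members was not tested.

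**Figure D4:**
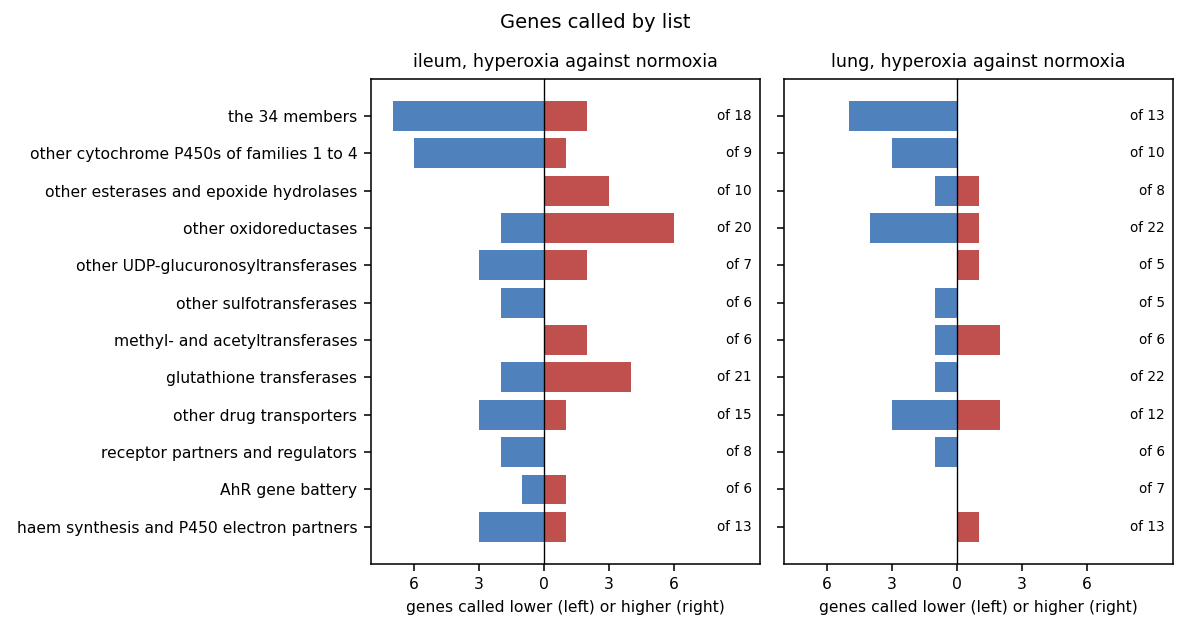
Number of genes called lower (blue, left of 0) or higher (red, right of 0) under hyperoxia in each list, for the ileum (left panel) and the lung (right panel), with the number tested at the right edge. The 34 members gave 7 lower and 2 higher of 18 in the ileum and 5 lower and none higher of 13 in the lung.

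Whether the 2 tissues changed differently was tested directly, as the ileum change minus the lung change, over the 9 members measured by 1 probe in both. For 3 of the 9 the changes differed, on arrays where 27.2% of 10228 genes did. Fmo2 changed by 0.19 in the ileum and by -1.38 in the lung, a difference of 1.57 ± 0.27 (limma adjusted p = 0.00139), or 0.78 without background correction. In normoxia ileum Fmo2 averaged 5.72, close to the lowest signals counted as detected on those arrays (5.23 to 5.31), against 7.40 in normoxia lung. A fall from the ileum level could be seen only in part. Cyp2d22 changed by -0.13 in the ileum and -1.12 in the lung, a difference of 0.99 ± 0.23 (adjusted p = 0.00837). On its dim second probe the difference was 0.18 (adjusted p = 0.691), and on the mean of both probes 0.58 (adjusted p = 0.0618). Cyp2s1 changed by -0.75 in the ileum and 0.28 in the lung, a difference of -1.03 ± 0.36 (adjusted p = 0.0499). That call was lost when any of 9 of the 12 arrays was left out (adjusted p = 0.0551 to 0.123): all but normoxia lung replicate 3, hyperoxia lung replicate 3 and hyperoxia ileum replicate 1.

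Fmo5 was the 1 member called in both tissues, lower in each, and its changes did not differ beyond their error (0.19 ± 0.27, limma adjusted p = 0.609). For Cyp1b1 (1.01, adjusted p = 0.0886), Adh1 (0.51), Ces1d (0.48), Cyp3a13 (0.21) and Cyp2c65 (-0.40) the difference was not called either. Among called members, Cyp2d26, Cyp2c55, Ugt1a1, Abcc2, Sult1d1 and Nr1i2 could be tested in the ileum alone, and Cyp2e1 and Cyp4b1 in the lung alone.

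**Figure D5:**
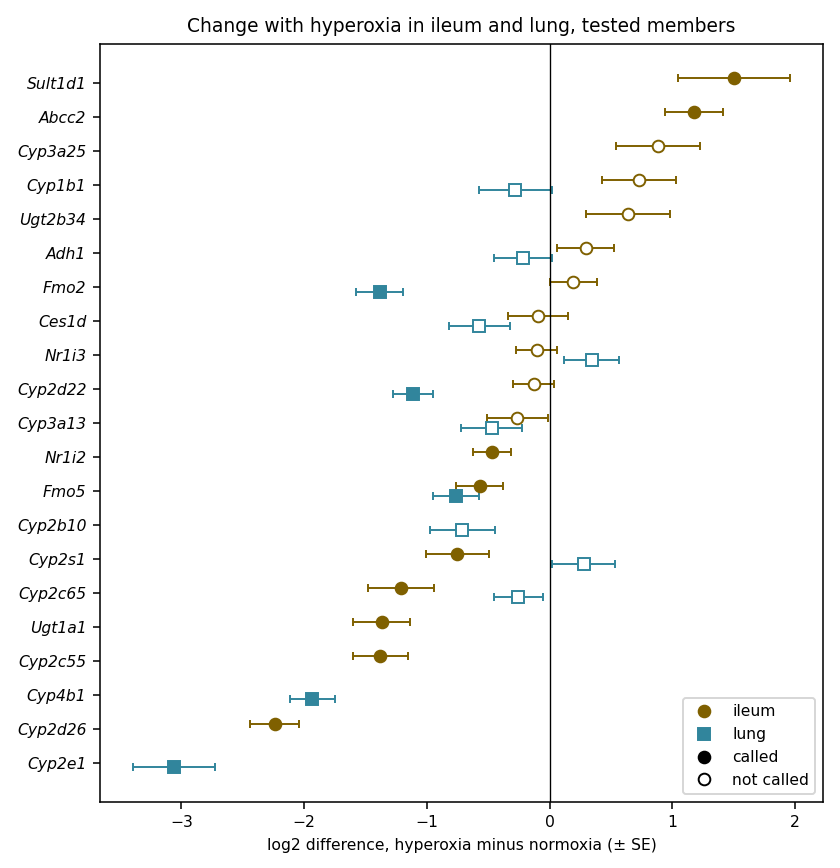
Log2 difference, hyperoxia minus normoxia, of each tested member in ileum (brown circles) and lung (blue squares), with the SE of the fit as bars; filled symbols were called. Sult1d1 and Abcc2 stand right of 0 in the ileum, Cyp2d26 and Cyp2e1 lie farthest left, and for Fmo2 and Cyp2d22 the lung symbol lies left of the ileum symbol.

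A further 10 members with a probe were tested in neither tissue. The P450 Cyp1a1, the classic target of Ahr, read 4.41 to 4.62 on the 12 arrays and was detected on none. Ahr itself was undetected on all 12, at 4.42 to 4.76, as were the carboxylesterases Ces1g and Ces2a, the glucuronosyltransferase Ugt2b5 and the efflux pump Abcb1a. Each of these genes was read by 1 probe, so a probe that fails and a gene that is not expressed cannot be told apart. Cyp3a11, a main target of Nr1i2 in liver, was detected on 1 array, hyperoxia ileum replicate 3, at 7.26, against 5.07 on both other hyperoxia ileum arrays and 4.51 to 4.76 in normoxia ileum. The sulfotransferase Sult1b1 (5.33) and the efflux pump Abcg2 (5.31) were also detected only there, but close to the detection limit. The lowest signal counted as detected was 5.14 on that array, against 5.26 and 5.31 on hyperoxia ileum replicates 1 and 2. Aox1 was detected on 2 of 3 hyperoxia lung arrays, at 5.28 and 5.35, and on no normoxia lung array.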

How the data were processed

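Total RNA of 12 samples was hybridised to Illumina MouseWG-6 v2.0 bead arrays, 1 sample per array. The deposited table held a raw intensity per probe and array, which by its values had neither background correction nor normalisation, and a detection p-value per probe and array, deposited beside it. The submitters' processing notes name GenomeStudio 2011.1, but its settings are not given in the sources used here. A second deposited table held the authors' background-subtracted and quantile-normalised intensity values on a linear scale, of which 29.2% were below 0. It served only as an alternative, with a floor of 16 before log2. The raw intensities were background-corrected, quantile-normalised and log2-transformed with neqc (offset 16) in limma 3.58.1 under R 4.3.3. A gene was tested in a tissue where a probe was detected on at least 3 of its 6 arrays, through its brightest such probe. One linear model of 4 group means over the 12 arrays gave all comparisons, with Benjamini-Hochberg adjustment over all genes tested and calls at an adjusted p under 0.05. With 3 arrays against 3 an exact permutation test cannot go below p = 0.1, and precision is bounded by having only 3 arrays in each group. The script for the model was tested on simulated data.

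The members and the gene lists were chosen with earlier results of these data known. Members called in an exposure comparison are given on every array. Of the other lists, genes were named by the size of the moderated statistic among called genes, or where a sentence describes the whole list. Of 45281 probes, 34885 had 1 gene symbol, 18 several and 10378 none, and only probes with 1 symbol were used. Groups follow the tissue and treatment labels, since the source name of 6 arrays gave the other tissue. Alternatives covered background correction, scaling, detection filters, the moderation, array weights, a replicate block and leaving out each array. Promoter windows came from RefSeq (GRCm38.p6) and were searched with Python 3.11.15.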

Additional observations from a re-analysis of the deposited data

Results flagged for a closer look

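For 3 members the change under hyperoxia differed between ileum and lung by the test of the difference itself, given as the ileum change minus the lung change. It was 1.575 ± 0.271 for Fmo2 (limma adjusted p = 0.00139), 0.986 ± 0.233 for Cyp2d22 (adjusted p = 0.00837) and -1.028 ± 0.363 for Cyp2s1 (adjusted p = 0.0499). Fmo2 lay close to the detection limit in the ileum. Members too rarely detected to be tested in a tissue were searched for a signal on hyperoxia arrays, with no detection in normoxia. The reverse was not searched. In 4 members such a signal stood above every normoxia array of that tissue. The highest hyperoxia array read 7.255 log2 signal for Cyp3a11, 5.33 for Sult1b1 and 5.307 for Abcg2 in the ileum, each detected on replicate 3 alone. In the lung it read 5.348 for Aox1, detected on 2 of 3 hyperoxia arrays. These signals were not tested, and those of Sult1b1, Abcg2 and Aox1 lay close to the detection limit.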

How the results depend on the processing

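Across the other settings tried, 330 of 387 values of the 17 called member results on exposure kept their direction and their side of the threshold, 57 kept the direction but missed the threshold, and 0 changed sign. Of 416 values of the 20 calls between the tissues, 409 kept their side, 6 missed the threshold (5 of Cyp2s1) and 1 changed sign. That one and the sixth were Nr1i3 without normoxia ileum replicate 2 (-0.08) or 1 (0.14), where the brightest probe no longer passed the detection filter and a dimmer one took its place. A second probe, tried after seeing the data, gave -0.085 for Sult1d1 in the ileum (limma adjusted p = 0.725). With no detection filter 8 members differed between the tissues in their change, against 3, with 31 tested. With detection required on all arrays 7 members differed between normoxia ileum and normoxia lung, of 8 tested. Leaving out 1 array at a time gave 5 to 11 members called in the ileum, 5 to 6 in the lung, 2 to 4 for the difference of the changes and 11 to 21 between the tissues in normoxia. The 11 were of 14 tested, without normoxia ileum replicate 1 or 2, since fewer members then passed the detection filter. The calls over all genes moved too, from 1403 to 3594 in the ileum and from 1547 to 3059 in the lung. For the difference of the changes they were 1906 to 3269, and between the tissues 5379 to 7245. With the replicate block 6 members were called in the ileum, losing Cyp2s1, Fmo5 and Nr1i2, 5 in the lung, 2 for the difference of the changes and 20 between the tissues. Same-numbered arrays of different groups were compared by each probe's deviation from its group mean. Correlations of these deviations lay between -0.207 and 0.122, so the numbers were not taken to pair the samples. Over all genes, the ileum count of 2995 became 1465 with only the 2 groups and 4673 with array weights, the lung count of 2297 became 3851 with weights, and the 2778 genes of the difference became 4400. The cause was not tested. The array chip as a block was not run, since the headers used here give none. Weak signals near background limit the fold changes of Cyp2e1, Cyp2d26, Cyp2c55, Ugt1a1, Fmo2 and, in the lung, Fmo5.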
